A study of Mus musculus with 8 samples.

Results

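In wild-type (WT) mouse embryonic stem cells, the genomic positions of the transcription factor YY1 were compared with those of the histone acetyltransferase P300. The 4 WT libraries of the series were taken by their labels, 2 made with an antibody to YY1 and 2 with an antibody to P300, out of 8 libraries in all. They held 13278 of the 40570 peaks that the 8 libraries have on chromosomes 1 to 19 and X. The cells were E14TG2a, an established mouse embryonic stem cell line, grown in serum with LIF and the kinase inhibitors PD0325901 and CHIR99021. The other 4 libraries came from cells of the same line with the genotype Alkbh5 del-cIDR (Alkbh5 encodes an RNA demethylase), and served here only as lists from other samples. Binding was mapped by CUT&RUN, in which nuclei are incubated with an antibody that directs a nuclease to release the DNA around its target. The labels do not say that replicates came from separate cultures, so the spread between them may be technical.

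YY1 is a zinc-finger protein that binds a short DNA motif, is common at active promoters, and can bridge promoters and enhancers by forming dimers. P300, encoded by Ep300, has no sequence-specific DNA-binding domain of its own. It is brought to enhancers and promoters by transcription factors and acetylates histones there, and its occupancy is widely used to locate enhancers in embryonic stem cells. Mapping both proteins in one cell state addresses how far their sites coincide.

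Each library has its own list of peaks, which are intervals where the authors' peak caller found more reads than a local background. Each peak has a summit (the position of highest signal), a fold over background and a −log10 q. The YY1 lists held 3519 and 5833 peaks in replicates 1 and 2, and the P300 lists 1452 and 2474. Both YY1 lists were longer than both P300 lists, with a log2 difference of 1.26, a ratio of 2.39. Reassigning the 4 libraries to the antibodies in all 6 ways (exact permutation, two-sided) gave p = 0.333, the lowest value it can take with 2 libraries against 2, so no test of this kind here can pass 0.05. Read totals are not in the files, and a longer list can come from more reads, so the depth behind each list is unknown. A position absent from a list is one that did not pass the authors' threshold.

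The lists separated by antibody. With the 1452 best-ranked peaks of each library, the Jaccard index (bases covered in both lists over bases covered in either) was 0.397 between the YY1 replicates and 0.219 between the P300 replicates. Between a YY1 and a P300 list it was 0.0402 to 0.0482. The mean within antibodies exceeded the mean between them by 0.265 (exact permutation over the 3 divisions of the libraries into pairs, p = 0.333, its smallest value). The 1452 peaks were the whole list of P300 replicate 1, while the other lists were cut to their best-ranked peaks. The median fold of the peaks used was 6.67 and 7.93 for YY1 and 5.06 and 5.61 for P300. Their median width was 360 and 407 bp for YY1 and 161 and 178 bp for P300. The part of this in the higher index of the YY1 replicates was not tested. At this length YY1 replicates shared a larger part of their covered bases than P300 replicates. Both pairs shared more than any pair across antibodies. This grouping would be the same with the labels YY1 and P300 exchanged, so it does not check which antibody is which. Motifs, promoters and genes on the build of the files were not used here, so the labels were not checked further.

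YY1 peaks were wider than P300 peaks. The median width was 287 and 269 bp in the YY1 libraries and 161 and 164 bp in the P300 libraries, means of 278 ± 12.7 and 162 ± 2.12 bp (SD, n = 2 each). Both YY1 medians lay above both P300 medians, by 116 bp on average (two-sided exact permutation test, n = 2 per antibody, p = 0.333, the smallest possible). Peaks of at least 400 bp made up 25% and 24.7% of the YY1 lists but 4.06% and 3.52% of the P300 lists. Peaks under 200 bp made up 17.0% and 26.6% of the YY1 lists and 72.3% and 71.6% of the P300 lists.

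The shortest peak of a list also differed by antibody, at 178 and 163 bp for YY1 and 122 and 120 bp for P300. On average the shortest peaks differed by 49.5 bp, beside 116 bp for the medians. The peak caller's settings for each list, such as a least peak length, are not given, and their part in the widths was not tested. The median exceeded the shortest peak by 109 and 106 bp for YY1 and by 39 and 44 bp for P300, so the upward spread of widths was also larger for YY1. Better-ranked peaks were wider in all 4 lists. Ranks are given below as the percentile of −log10 q within a list, where 100 is the best peak. From percentiles of 0 to 10 up to percentiles of 90 to 100 the median width went from 218 to 434 bp and from 201 to 452 bp in the YY1 replicates, and from 142 to 219 bp and from 144 to 218 bp in the P300 replicates. The best-ranked decile of P300 peaks was therefore about as wide as the worst-ranked decile of YY1 peaks. Among peaks with a deposited fold from 5 up to 6, the medians were 296 and 288 bp for YY1 (904 and 1398 peaks) and 160 and 171 bp for P300 (346 and 652 peaks). Fold is relative to each library's own background, so an equal fold need not be an equal signal.

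**Figure D1:**
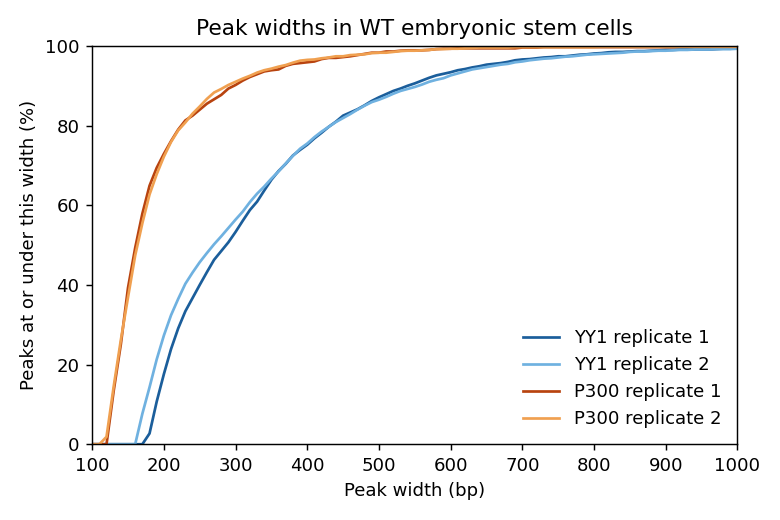
Cumulative share of peaks (%) at or under each width (bp) in the 4 WT libraries. The P300 curves lie to the left, with medians of 161 and 164 bp, and the YY1 curves to the right, with medians of 287 and 269 bp.

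YY1 summits were closer together than P300 summits in the whole lists, which were also longer for YY1. The median distance between neighbouring summits was 268 and 156 kb for YY1 and 623 and 382 kb for P300. Both YY1 values were lower, a log2 difference of −1.25 (two-sided exact permutation test, n = 2 per antibody, p = 0.333, the smallest possible). With the 1452 best-ranked peaks of each list the order was reversed, at 667 and 715 kb for YY1 and 623 and 600 kb for P300, a log2 difference of 0.18 (exact permutation p = 0.333).

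P300 summits were the more clustered. Neighbouring summits under 10 kb apart made up 17.2% and 14.5% of the P300 neighbours and 5.34% and 8.10% of the YY1 neighbours, although the P300 lists were shorter. In lists of equal length the shares were 17.2% and 17.4% for P300 and 4.68% and 3.70% for YY1. Part of this clustering lay in 13 crowded 1 Mb windows, defined as holding 10 or more peaks of each WT P300 list, on chromosomes 4, 5, 8, 9, 11, 13 and 14. These windows held 18.5% and 13.2% of the P300 peaks and 2.93% and 2.18% of the YY1 peaks, a difference that follows in part from how the windows were picked. Without the windows the lists of 1452 peaks kept 1184 and 1162 P300 peaks and 1399 and 1408 YY1 peaks, so they were no longer equal in length. In these, neighbours under 10 kb still made up 7.99% and 7.88% for P300 and 3.70% and 2.88% for YY1. The median spacing in these shorter P300 lists was 1001 and 1077 kb, and in the YY1 lists 733 and 755 kb. In the whole lists without the windows, which were longer for YY1, the gap was small in replicate 2. Neighbours under 10 kb there made up 7.99% and 8.04% for P300 and 4.53% and 7.56% for YY1.

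**Figure D2:**
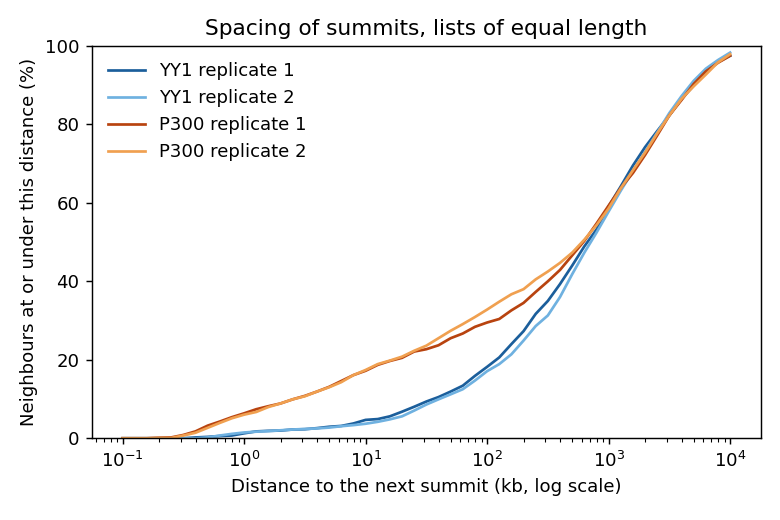
Cumulative share (%) of neighbouring summits at or under each distance (kb, log scale) among the 1452 best-ranked peaks of each WT library. At 10 kb the P300 curves stand at 17.2% and 17.4% and the YY1 curves at 4.68% and 3.70%, and the curves meet near 1000 kb.

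Most YY1 summits had no P300 summit nearby. The median distance from a YY1 summit to the nearest P300 summit was 439 and 215 kb for YY1 replicate 1 (to P300 replicates 1 and 2) and 451 and 223 kb for YY1 replicate 2, a mean over the 4 pairs of lists of 332 ± 131 kb (SD over pairs, which share libraries). Among peaks with −log10 q of at least 5 it was 1645 kb, where the P300 lists held only 569 and 792 peaks. A shorter list gives a longer distance to its nearest summit by construction. In lists of equal length the mean was 437 kb. In the whole lists the distance depended more on which P300 list was searched than on the YY1 list, and without P300 replicate 1 the mean was 219 kb. From YY1 replicate 1 to YY1 replicate 2 the median was 0.142 kb, and in the other direction, to the shorter list, 25.3 kb. Of the YY1 summits, 6.63% to 10.1% over the 4 pairs lay within 1 kb of a P300 summit, a mean of 8.46% ± 1.49 (SD over pairs). Within the same 1 kb, 66.9% and 41.7% of YY1 summits had a summit of the other YY1 replicate. A repeat of the YY1 mapping thus placed a summit within 1 kb several times as often as P300 mapping did.

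Seen from P300, 15.6% to 27.8% of its summits lay within 1 kb of a YY1 summit, and the median distance was 27.0 to 98.3 kb. The P300 replicates reached 50.7% and 30.4% of each other's summits within 1 kb. In lists of equal length the 1 kb shares were alike from either side, at 9.23% to 10.8% from YY1 and 10.5% to 12.3% from P300. The median distances in equal lists were not alike, at 384 to 485 kb from a YY1 summit to P300 and 231 to 266 kb from a P300 summit to YY1. Distances of more than 1 kb and up to 10 kb were also more frequent from P300 (5.58% to 6.54% of summits to YY1) than from YY1 (0.895% to 1.58% to P300). The P300 replicates showed a similar 5.44% and 6.34% toward each other in that band, and the YY1 replicates 1.58% and 1.17%, so the band went with the list the summits came from.

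Where a YY1 and a P300 summit lay within 1 kb, the distance was often under 100 bp. From YY1, 49.9% to 57.9% of such summits were within 100 bp (46.2% to 52.4% without the 77 regions called in all 8 libraries of the series, described below) and from P300 48.0% to 55.6%, beside 63.2% and 65.3% between the YY1 replicates and 66.9% and 68.3% between the P300 replicates. Of the YY1 summits within 1 kb of a P300 summit, 18.6% to 25% belonged to peaks that did not overlap a P300 peak, with median distances of 415 to 445 bp. Between the YY1 replicates that share was 4.46% and 7.20%, and between the P300 replicates 14.9% and 17.2%.

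**Figure D3:**
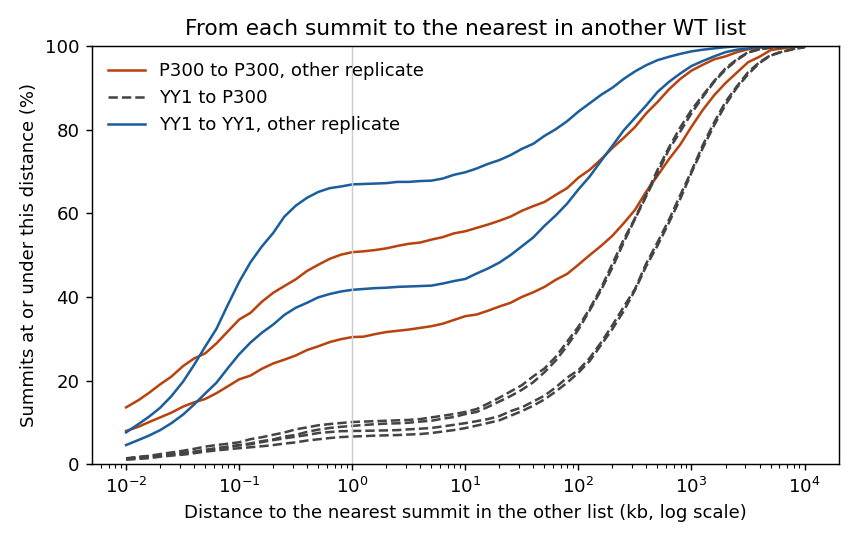
Cumulative share (%) of summits at or under each distance (kb, log scale) to the nearest summit of another WT list, for YY1 to P300 (4 pairs, dashed), YY1 to the other YY1 replicate and P300 to the other P300 replicate. At 1 kb, marked by the grey line, the dashed curves stand at 6.63% to 10.1%, the P300 pairs at 50.7% and 30.4% and the YY1 pairs at 66.9% and 41.7%.

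Regions of each antibody were made by merging the peaks of its 2 WT lists wherever they shared at least 1 bp. YY1 had 7084 such regions, of which 2236 (31.6%) were in both lists, and P300 had 3297, of which 620 (18.8%) were in both. Of the 2236 YY1 regions, 124 overlapped a P300 region of both P300 lists, 5.55% (Wilson 95% interval 4.67 to 6.57, which covers counting error only). Of the 620 P300 regions, 130 overlapped a YY1 region of both lists, 21.0% (17.9 to 24.3). For regions found in 1 list only the shares were 2.06% (1.70 to 2.50) of 4848 YY1 regions and 5.64% (4.83 to 6.58) of 2677 P300 regions. These shares are set by the lists used. With a single list on one side, the YY1 share ran from 3.36% without YY1 replicate 1 to 9.44% without P300 replicate 1, and the P300 share from 8.97% without P300 replicate 1 (13.1% without P300 replicate 2) to 32.1% without YY1 replicate 1.

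Much of the overlap lay at positions that were called in every library of the series, whatever the antibody or genotype. There were 77 such regions on chromosomes 1 to 19 and X, and by definition each holds peaks of both antibodies. Peaks were merged in chains, so within such a region a YY1 peak need not touch a P300 peak. Without these 77 regions 50 of 2160 YY1 regions (2.31%, 1.76 to 3.04) overlapped P300, and 50 of 539 P300 regions (9.28%, 7.11 to 12) overlapped YY1. For regions in 1 list only the shares without them were 2.02% (1.66 to 2.46) for YY1, an interval that overlaps the one for both lists, and 5.40% (4.6 to 6.32) for P300, an interval below it. The share of YY1 summits within 1 kb of P300 moved less, to a mean of 6.76%. No control library was analysed here, so binding of both proteins and signal that appears at a position with any antibody cannot be told apart at these 77 regions.

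The overlap was concentrated among the best-ranked regions. The 2236 YY1 regions were ordered by their mean percentile in the 2 lists and divided into deciles. In the best decile 52 of 224 (23.2%, 18.2 to 29.2) overlapped P300, above the 5.55% of all YY1 regions, and in each of the other 9 deciles the share was 2.23% to 5.36%. All of the 20 best-ranked YY1 regions overlapped P300, 19 of them being regions called in all 8 libraries. Of the 100 best, 43 overlapped, and 40 were called in all 8. With those regions set aside, 8 of 180 regions (4.44%) overlapped in the best decile, above the 2.31% of all 2160 remaining YY1 regions. None of 218 overlapped in the next, and the other deciles had 1.4% to 4.50%.

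P300 regions showed a longer slope. The share overlapped by YY1 was 58.1% (45.7 to 69.5), 38.7% (27.6 to 51.2) and 29.0% (19.2 to 41.3) in the best 3 deciles of 62 regions each, above the 21.0% of all P300 regions. It was 3.23% to 21.0% in the other 7 deciles. Without the regions called in all 8 libraries the best decile held 2 of 28 (7.14%), the next 6 of 44 (13.6%), and the other deciles 1.64% to 15.5%, with no slope from best to worst. The share of all 539 remaining P300 regions was 9.28%, above that of their best decile and below that of the next. For both antibodies much of the excess among top ranks lay in the regions present in all 8 libraries, which hold peaks of both antibodies by definition.

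**Figure D4:**
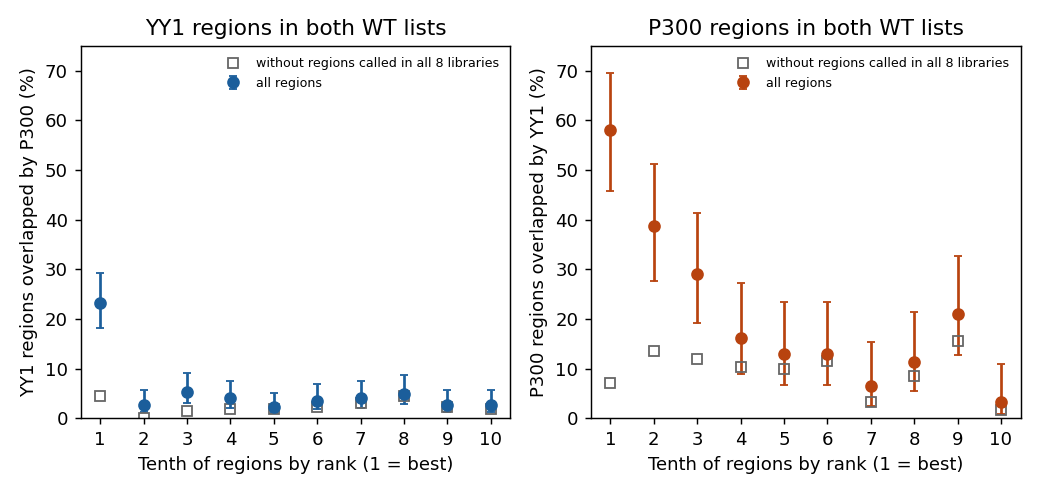
Share of regions (%) overlapped by the other antibody in each decile by rank (1 is the best), for the 2236 YY1 and 620 P300 regions found in both WT lists of their antibody. Filled points are all regions with Wilson 95% intervals, and open squares leave out regions called in all 8 libraries, which lowers the best YY1 decile from 23.2% to 4.44% and the best P300 decile from 58.1% to 7.14%.

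Merging the peaks of all 4 WT lists gave 9731 regions, of which 131 were held by all 4 libraries. A further 1973 were in both YY1 lists and no P300 list (YY1 alone), and 391 in both P300 lists and no YY1 list (P300 alone). A single library held 6742 regions (69.3%). Among the 131 shared regions, 77 were those called in all 8 libraries and 54 were not. Peaks in the 131 regions ranked high. Their median percentile was 85.7 and 89.0 in the YY1 lists, against 64.8 and 74.6 for YY1-alone peaks, a mean difference of 17.6 ± 4.6 (SD, n = 2). In the P300 lists it was 85.4 and 93.3, against 64.8 and 75.3 for P300-alone peaks, a mean difference of 19.3 ± 1.78 (SD, n = 2). With 1 list left out the YY1 difference ran from 9.67 (without P300 replicate 1) and 11.6 (without P300 replicate 2) to 32.6 (without YY1 replicate 2), and the P300 difference from 14.4 to 29.1 (without P300 replicate 2) and 31.5 (without P300 replicate 1).

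The 54 shared regions that were not in every library did not rank high in this way. Their median percentile was 62.1 and 64.3 in the YY1 lists, below the YY1-alone peaks in both, and 65.0 and 80.8 in the P300 lists, above the P300-alone peaks in both. Outside the crowded windows the YY1 medians were 70.3 and 67.9 for 38 such regions and 65.0 and 74.8 for YY1-alone peaks, so the direction turned in replicate 1. The 77 regions called in all 8 libraries stood at 97.9 and 97.4 in the YY1 lists and 93.9 and 96.0 in the P300 lists. With those 77 set aside and ranks recomputed, the YY1 difference from the YY1-alone class became −6.61 and the P300 difference from the P300-alone class 2.93.

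In shared regions the ranks of the proteins went together, again mainly through the regions called in all 8 libraries. Spearman's rho between the percentiles of a YY1 and a P300 list over the 131 regions was 0.738 to 0.810, beside 0.880 between the YY1 replicates and 0.912 between the P300 replicates. These are correlations across regions of the same libraries, given as a description. Over the 54 regions rho was 0.0661 to 0.429 across antibodies, 0.517 between the YY1 replicates and 0.651 between the P300 replicates. The mean percentiles of YY1 and P300 differed by at most 10 points in 81 of the 131 regions. YY1 stood higher by over 20 points in 14 and P300 in 17.

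**Figure D5:**
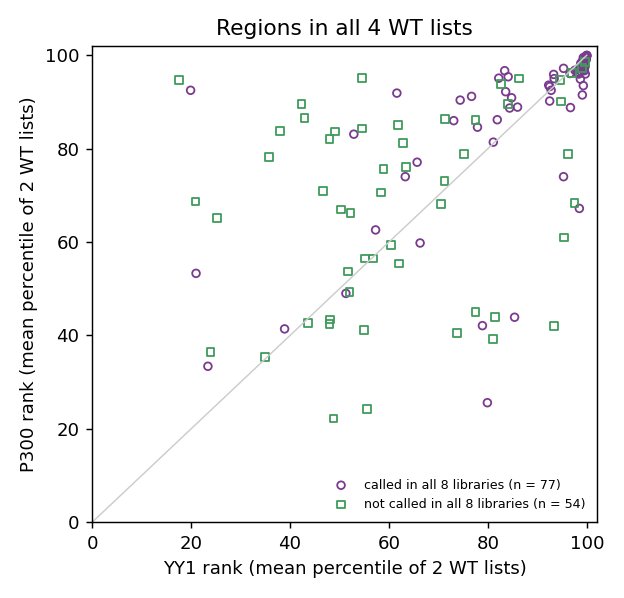
Mean percentile of −log10 q in the 2 YY1 lists (horizontal) and the 2 P300 lists (vertical) for each of the 131 regions held by all 4 WT libraries, where 100 is the best rank and the grey line marks equal ranks. The 77 regions called in all 8 libraries crowd into the upper right corner, and the other 54 are scattered on both sides of the line.

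YY1 and P300 summits lay close together in most shared regions. These regions were picked for overlapping peaks, which in part brings their summits close. The median distance between the best-ranked YY1 and P300 summits of a region was 27.0 to 32.0 bp over the 4 pairs of lists (mean 30.2 ± 2.22 bp, SD over pairs). Between replicates of 1 antibody in the same 131 regions it was 28.0 bp for YY1 and 19 bp for P300, so the offset across antibodies was near the offset between repeats of YY1. In the 54 regions not in every library it was 42.0 to 69.0 bp across antibodies, 66.0 bp between the YY1 replicates and 29.0 bp between the P300 replicates. In the 77 it was 18 to 24.0 bp across antibodies, above the 11 bp of the YY1 replicates and the 9 bp of the P300 replicates. Summits lay over 200 bp apart in 15.3% to 21.4% of the 131 regions across antibodies. Between the YY1 replicates this share was 13.0%, and between the P300 replicates 10.7%. The mean offset was 53.0 bp without P300 replicate 1.

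Peak widths in shared regions differed from those in the other regions in both replicates for P300, and in no steady direction for YY1. P300 peaks in the 131 regions had median widths of 269 and 268 bp, against 169 and 181 bp in P300-alone regions. YY1 peaks there had medians of 359 and 344 bp, against 329 and 376 bp in YY1-alone regions, which was higher in replicate 1 and lower in replicate 2. In the 54 regions not in every library P300 peaks had medians of 211 and 242 bp. P300 peaks of the whole lists with percentiles from 60 to 70 had medians of 170 and 172 bp, and those from 80 to 90 had 186 and 197 bp. The medians of these 54 regions were above those of both rank bands in both replicates. A wide peak overlaps another list more readily than a narrow one, and the part of that in the widths was not tested.

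The best-ranked shared regions, ordered by the mean percentile over the 4 WT lists, were high in both antibodies by that choice. The region chr2:98496596-98497677 (GRCm39, as are all positions below) had the first rank in all 4 WT lists, at folds of 20.3 and 20.8 in the YY1 and 19.2 and 20.2 in the P300 replicates. It was followed by chr9:35216512-35216887, where the fold was 37.7 and 41.0 for YY1 and 55.0 and 55.8 for P300. The third, chr6:103626012-103626254, reached 47.0 and 51.4 for YY1 and 72.2 and 73.0 for P300. All of the 10 best-ranked regions were called in all 8 libraries, and 5 of them lay on chromosome 9 between 3000017 and 3024632. Of the 131 shared regions 20 (15.3%) started before 4 Mb on their chromosome, compared with 1.17% of YY1-alone and 5.88% of P300-alone regions. Of these 20, 15 were among the 77 regions called in all 8 libraries (19.5%) and 5 among the other 54 (9.26%). Outside the crowded windows the shares were 7.89% of 38 shared regions not in all 8, 1.02% of YY1-alone and 1.68% of P300-alone regions. The lowest peak start on any chromosome was 3000017, and in the mouse assembly the stretch before the first sequence stands for the unassembled centromere end.

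Shared regions outside that set were more ordinary in rank. The first of the 54 was chr13:9061739-9062204, which had folds of 28.5 and 29.7 for YY1 and 41.6 and 39.3 for P300, and was held by 3 of the 4 del-cIDR lists. Regions with folds in the middle range were chr19:6789938-6790472 (8.85 and 8.42 for YY1, 12.6 and 16.8 for P300) and chr1:171049679-171050490 (7.04 and 11.5 for YY1, 6.38 and 6.48 for P300). The 10 best-ranked of the 54 lay on 10 different chromosomes, with mean percentiles from 82.9 to 99.1. These 10 were chosen after the values were seen.

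Some shared regions leaned to 1 protein. At chr1:128030250-128030809 the YY1 percentiles were 90.4 and 96.4 and the P300 percentiles 10.5 and 73.5. At chr17:6697192-6697927 they were 67.9 and 92.0 for YY1 and 44.4 and 6.71 for P300, the largest lead of YY1 in the mean. The largest lead of P300 was at chr17:3131913-3132288, with P300 percentiles of 94.6 and 94.7 and YY1 percentiles of 34.4 and 0.634. Next came chr13:62329828-62330378, with 92.2 and 92.8 for P300 and 5.80 and 34.0 for YY1. The P300 replicates were far apart in rank in both regions led by YY1, as were the YY1 replicates in both led by P300, which limits how well such leads can be read. The compared summits can also lie apart in a merged region, so a lead need not refer to 1 site. At chr17:6697192-6697927 the summits were at 6697663 and 6697698 for YY1 and at 6697282 and 6697522 for P300.

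YY1-alone regions were wide, as shared regions were, and recurred in other cells of the line. Their median width was 448 bp as merged regions, with quartiles of 347 and 596 bp. The 131 shared regions, which merge peaks of 4 lists, had a median of 476 bp. The best-ranked YY1-alone region was chr2:22634872-22635138, whose YY1 folds were 20.1 and 24.7. It was found in only 1 of the 4 del-cIDR lists, and the others of the best 10 in 2 or 3. It was followed by chr8:71326184-71326494 (folds 15.2 and 19.2), chr11:51579577-51580213 (13.5 and 17.2) and chr7:5017409-5018428 (10.9 and 12). The 10 best-ranked lay on 7 chromosomes, were 267 to 1120 bp wide and had folds of 10.8 to 24.7. None of these 10 was in a window crowded with P300 peaks. In the del-cIDR YY1 lists, which the classes did not use, 91.8% and 95.5% of the 1973 regions were found. Those lists held 9167 and 15517 peaks, more than either WT YY1 list, and the class kept only regions called in both WT YY1 lists. Both make it easier to find a region again. The share of all WT YY1 regions found there was not computed, so this recurrence cannot be called particular to the class. In the del-cIDR P300 lists 1.88% and 1.82% were found.

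P300-alone regions were narrow, with a median merged width of 219 bp and quartiles of 175 and 304 bp. Some of the best-ranked were narrow peaks of high fold. At chr9:24453314-24453455, which is 142 bp, the P300 folds were 51.8 and 51.3. At chr4:70296361-70296493, which is 133 bp, they were 45.3 and 46.7, and at chr13:77587029-77587176, which is 148 bp, 46.3 and 47.5. The other members of the best 10 included regions of low fold, such as chr14:3052628-3052787 (4.51 and 4.65), and a wider one, chr9:3029441-3029873 (433 bp, folds of 5.30 and 5.82). Over the 10, folds ran from 4.51 to 51.8 and widths from 133 to 433 bp. The best-ranked P300-alone region, chr9:3015242-3015463 at folds of 26.4 and 26.5, and 3 others of the best 10 lay in crowded windows, as did 93 of the 391 (23.8%).

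Of the P300-alone regions, the del-cIDR P300 lists held 47.1% and 48.1% of the 391, and the del-cIDR YY1 lists 9.46% and 19.2%. The del-cIDR P300 lists held 1322 and 1286 peaks and the del-cIDR YY1 lists 9167 and 15517, so a difference in recurrence between the antibodies cannot be told apart from the length of the lists searched. Shared regions outside the 77 were found in 57.4% and 63.0% of cases in the del-cIDR YY1 lists and in 59.3% and 55.6% in the del-cIDR P300 lists. For YY1 these shares were lower than those of YY1-alone regions, and for P300 they were higher than those of P300-alone regions. The 54 regions exclude by definition any region called in all 8 libraries, which lowers their shares.

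The shares of peaks on many chromosomes differed between the proteins, on some by very little. In 17 of 20 chromosomes (85.0%) both P300 shares of peaks lay on one side of both YY1 shares, P300 being higher on 6 and YY1 on 11. In replicate 2 the shares were 5.81% for YY1 and 5.82% for P300 on chromosome 5, and 5.79% and 5.74% on chromosome 1. Outside the crowded windows P300 was higher on 7, YY1 on 6, and the shares overlapped on 7, with chromosome 1 turning from YY1 higher to P300 higher. Shares of 1 library sum to the whole, so the chromosomes are not independent and the count is not a test. Chromosome 14 held 7.30% and 6.63% of P300 peaks and 4.09% and 4.22% of YY1 peaks, and chromosome 8 held 11.2% and 9.46% against 7.08% and 6.43%. The X chromosome held 1.58% and 1.46% of P300 peaks and 2.78% and 3.00% of YY1 peaks. Outside the crowded windows the shares of chromosome 14 were 4.14% and 4.47% for P300 and 3.78% and 3.94% for YY1, and the shares on X were 1.94% and 1.68% against 2.87% and 3.07%. The windows were picked for P300 peaks and several lie on chromosome 14, so leaving them out had to lower the P300 share there. None lies on X.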

How the data were processed

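CUT&RUN libraries were made with 2 antibodies from WT cells, 2 libraries each. Per the submitters' processing notes, fastp, BWA, SAMtools, Picard, MACS2 and featureCounts were used with build GRCm39. Their roles, versions and any control library are not given in the sources used here. The authors deposited 1 narrowPeak list per library with a score, a fold (the ratio of reads at the summit to a local background), −log10 p and −log10 q values and the summit position. The lowest deposited −log10 q was 1.30 to 1.31. The score and the −log10 p were not used. Fold and −log10 q are the authors' values and ranks were taken only within a list. A fold is relative to its own library's background, so folds of different libraries are printed side by side as values, not compared as levels.

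Peaks on chromosomes 1 to 19 and X were kept (1.25% to 7.93% of a WT list was left out), and coordinates count from 1. Distances, overlaps (at least 1 bp) and exact permutation tests over libraries were computed with Python 3.11.15, numpy 2.4.6, pandas 2.3.3 and scipy 1.17.1, and were tested on simulated lists. Depth is unknown, and intervals (Wilson, 95%) cover counting error only. The gene and promoter tables at hand are on GRCm38, so the planned promoter shares, nearest genes and gene lists were not computed and no sequence is printed. Named regions are the 10 with the best mean percentile in each class, and the 3 with the largest rank difference each way. Members, classes and rules were chosen with earlier results of these data known. Alternatives were a −log10 q of at least 5, equal list lengths, leaving out recurrent regions, crowded windows or single replicates, and other overlap rules.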

Additional observations from a re-analysis of the deposited data

Results flagged for a closer look

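Peaks on unplaced scaffolds were left out of the comparisons, and their counts exceeded a preset floor of 3 peaks. They made up 0.898% and 0.914% of all peaks in YY1 replicates 1 and 2 (32 and 54 peaks) and 5.07% and 3.83% in P300 replicates 1 and 2 (80 and 100 peaks). Both P300 shares lay above both YY1 shares, a difference of means of −3.55 percentage points for YY1 minus P300 (two-sided exact permutation test, n = 2 per antibody, p = 0.333, the smallest possible).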

How the results depend on the processing

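The log2 difference in peak number (0.873 to 1.64 with 1 library left out), the width difference and the excess of overlap within antibodies kept their direction under all alternatives run for them. Equal list lengths do not apply to peak number and were part of the Jaccard index from the start, which also kept its direction with whole lists, an alternative added after seeing the data, and with percent of peaks. No exact test can pass 0.05 here. The labels number the replicates of both antibodies, but nothing says that equal numbers share a culture or day. Over the 625 regions called in at least 1 library of each antibody, the correlation of replicate differences in presence was 0.0314. With the replicate number as a block, the paired differences were 1.26 (peak number, log2), 116 bp (width) and −1.25 (spacing, log2), each with exact p = 0.5, the smallest 2 pairs allow.

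With −log10 q of at least 5, the log2 spacing difference was 0.236 (0.176 at equal length, opposite in sign to the whole lists), YY1 summits within 1 kb of P300 6.64%, the median distance 1645 kb, the overlapped P300 share 25.2%, the rank differences 31.2 (YY1) and 24.1 (P300) and the summit offset 14.2 bp. At equal length the 1 kb share was 9.95%, the overlapped shares 8.08% (YY1) and 14.7% (P300), the rank differences 32.1 and 27.5 and the offset 14.2 bp. Without regions called in all 8 libraries these were 6.76%, 2.31%, 9.28%, −6.61, 2.93 and 57.0 bp. Without crowded windows as well, added after seeing the data, they were 5.90%, 1.60%, 8.44%, −0.821, 7.26 and 56.0 bp. Without crowded windows alone the YY1 overlap was 3.82%, the P300 rank difference 21.8 and the offset 38.2 bp. Leaving out 1 replicate gave ranges of 3.36% to 9.44% (YY1 overlap), 8.97% to 32.1% (P300 overlap), 9.67 to 32.6 (YY1 rank), 14.4 to 31.5 (P300 rank) and 33.5 to 53.0 bp (offset). Other limits gave 4.43% of YY1 regions with summits within 100 bp of P300, and 4.55% of YY1 summits within 100 bp and 10.8% within 10 kb. Apart from equal length, list filters and single lists, which change the regions by construction, the cause of these shifts was not tested. Of 107 recomputed values, 4 changed sign, and shares, distances and offsets cannot do so. A further 48 moved beyond the SD or interval of the main result.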
